A study of Mus musculus with 6 samples.

Results

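The insulin-like growth factor (IGF) genes described here are the 10 rows of the expression table whose symbols are *Igf1*, *Igf2*, *Igf1r*, *Igf2r*, *Igfbp2*, *Igfbp3*, *Igfbp4*, *Igfbp5*, *Igfbp6* and *Igfbp7*, out of 19078 genes. They were taken by name, and all 10 were found. The table compares poly(A)-selected RNA from 3 libraries of immortalized mouse fibroblasts that overexpress *Ms4a15* (*Ms4a15* OE) with 3 libraries of control fibroblasts. *Ms4a15* encodes a membrane protein of the MS4A family and was switched on at its own gene with a CRISPR activation guide delivered by lentivirus. The OE cells were a selected pool rather than a clone, and the sample labels call the control cells wild type, while the methods give them an empty lentivirus. The methods describe the parental cells as embryonic fibroblasts with a conditional *Gpx4* allele and Cre-ERt2, and the labels add that the cells grew in medium with 10% fetal bovine serum. Nothing in the labels says that the libraries of a group came from separate cultures, so the p-values measure the spread between these libraries, which may be technical.

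IGF1 and IGF2 are secreted peptides that promote growth and survival through the receptor tyrosine kinase IGF1R. IGF2R, the cation-independent mannose-6-phosphate receptor, takes IGF2 to lysosomes for degradation and carries lysosomal enzymes, without a kinase domain. The IGF-binding proteins hold the ligands outside the cell and can block or prolong their action, and proteases such as PAPP-A cut some of them and release the ligand. Fibroblasts and other mesenchymal cells are known sources of several IGF-binding proteins.

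Transcripts of 3 binding proteins rose in *Ms4a15* OE cells: *Igfbp4* 5.58-fold, *Igfbp6* 2.98-fold and *Igfbp7* 1.34-fold. The receptors moved in opposite directions, *Igf1r* rising 1.18-fold and *Igf2r* falling 1.35-fold. The ligands *Igf1* and *Igf2* and the binding proteins *Igfbp2*, *Igfbp3* and *Igfbp5* had between 1 and 9 reads each over all 6 libraries, and none of these 5 passed the test. Around the members, the protease *Pappa* and the docking protein *Irs1* rose, and the PAPP-A inhibitor *Stc1*, the protease *Adam12* and the docking protein *Irs2* fell. *Stc1* had few reads, 0 in OE and 30 in control libraries, and the more abundant *Stc2*, the other stanniocalcin, did not pass the test.

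The RefSeq promoter windows of the 3 binding proteins that rose and of the receptor that fell are printed to let their letters be compared. Each spans 250 bases before and 50 bases after the RefSeq start (GRCm38.p6), 5′ to 3′ on the gene's strand. Capitals mark the motifs, which were searched on both strands. A GC box was taken as GGGCGG, the core to which factors of the Sp family bind. A TATA box was taken as TATAAA, which helps to place the start of transcription. A CCAAT box was taken as these letters themselves, the site of the factor NF-Y. An E-box was taken as CACGTG, a site of bHLH factors, and reads alike on both strands. An AP-1 site was taken as TGACTCA, which dimers of Fos and Jun bind. The windows lie at chr11:99040994-99041293 (+) for *Igfbp4*, chr15:102143936-102144235 (+) for *Igfbp6*, chr5:77407996-77408295 (-) for *Igfbp7* and chr17:12769657-12769956 (-) for *Igf2r*.
Igfbp4: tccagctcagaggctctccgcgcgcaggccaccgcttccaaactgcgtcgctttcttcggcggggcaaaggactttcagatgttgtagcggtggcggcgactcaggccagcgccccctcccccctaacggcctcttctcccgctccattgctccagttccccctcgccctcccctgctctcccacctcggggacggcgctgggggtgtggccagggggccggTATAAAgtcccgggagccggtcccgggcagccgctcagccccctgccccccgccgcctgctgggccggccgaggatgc
Igfbp6: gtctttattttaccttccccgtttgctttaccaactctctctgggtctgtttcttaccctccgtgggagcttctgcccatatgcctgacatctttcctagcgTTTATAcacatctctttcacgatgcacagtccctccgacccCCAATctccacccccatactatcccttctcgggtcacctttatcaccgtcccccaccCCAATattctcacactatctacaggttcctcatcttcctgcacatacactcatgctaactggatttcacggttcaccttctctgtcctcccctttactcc
Igfbp7: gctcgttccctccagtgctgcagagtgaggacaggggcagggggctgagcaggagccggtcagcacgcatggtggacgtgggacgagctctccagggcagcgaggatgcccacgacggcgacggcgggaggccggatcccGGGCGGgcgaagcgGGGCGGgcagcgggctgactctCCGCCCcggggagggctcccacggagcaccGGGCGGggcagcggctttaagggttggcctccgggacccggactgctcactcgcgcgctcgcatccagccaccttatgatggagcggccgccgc
Igf2r: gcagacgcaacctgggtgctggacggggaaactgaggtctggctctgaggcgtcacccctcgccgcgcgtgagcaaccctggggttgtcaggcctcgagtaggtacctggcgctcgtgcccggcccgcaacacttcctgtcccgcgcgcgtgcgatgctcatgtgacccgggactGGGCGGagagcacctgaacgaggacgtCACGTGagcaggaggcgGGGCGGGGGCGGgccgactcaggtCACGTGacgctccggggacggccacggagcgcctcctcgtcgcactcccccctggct

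The 4 windows shared little in these letters. *Igfbp4* held 1 TATA box, whose first base was 28 bases before the start, and no other motif searched. *Igfbp6* held CCAAT boxes 107 and 50 bases before the start and TATA letters 148 bases before it. Its window ends upstream of the start that GENCODE gives the gene. *Igfbp7* held 4 GC boxes, at 110, 96, 74 and 44 bases before the start. *Igf2r* held 3 GC boxes, of which 2 lay side by side, and 2 E-boxes, at 48 and 7 bases before the start. None of the 4 windows held an AP-1 site. Among 32851 promoter windows of this length, 35.7% held a GC box, 13.6% a TATA box, 37.4% a CCAAT box, 7.15% an E-box and 5.20% an AP-1 site. The GC content was 71.3% in *Igfbp4*, 73.3% in *Igfbp7* and 70.7% in *Igf2r* but 49.7% in *Igfbp6*, against a median of 52.7% over all windows. A match says only that the letters are present in the window.

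The unit of the table is the normalized count, a read count divided by the library's size factor. The table gives each gene's mean over all 6 libraries, its log2 fold change (OE over control) and the standard error (SE), so that the mean of each group follows from the first 2. It lists no single libraries and no library totals. Whole reads of each library were nevertheless recovered for genes at low levels and for some at moderate levels. There only 1 set of whole reads met the table's mean, or its mean and log2 fold change within the limits set. *Stc2*, with a mean of 398, was tried and not recovered, and genes with a mean of 700 or more were not tried. Within a group, the libraries are called a, b and c by rising size factor (0.887, 0.938 and 1.02 in OE, 0.946, 1.11 and 1.14 in control), because they could not be tied to the replicate numbers of the labels. A count of 0 allows up to 3 reads, which is 2.64 to 3.38 normalized counts depending on the library, and this floor covers counting error only.

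The label of the OE cells was checked first. *Ms4a15* had 1157, 1162 and 1309 reads in the OE libraries and 0 reads in each control library. Its level in OE cells was at least 449-fold higher than the control group's floor of 3 reads per library (adjusted p = 2.14e-26, DESeq2's Wald test). Of the 10 fibroblast markers *Vim* (112480 normalized counts in OE and 117789 in control cells) and *Fn1* (112230 and 116256) did not pass the test, *Col1a1*, *Col1a2*, *Col3a1* and *Pdgfrb* were lower in OE cells (log2 fold changes from -4.50 to -2.44), *Pdgfra*, *Thy1* and *Dcn* were higher, and *Lum* had at most 1 read in any library. The means of these 10 summed to 275374 normalized counts in OE and 602925 in control cells. Summed markers of myeloid cells lay between 1292 and 1330 normalized counts in the OE libraries and between 124 and 137 in the control libraries (2 of 4 higher, *Lyz2* and *Cd68*). *Ptprc* went the other way, with 7, 9 and 5 reads in OE and 16, 11 and 20 in control libraries. Neither *Ptprc* nor *Csf1r* (15, 9 and 30 against 8, 6 and 11 reads) passed the test. Summed endothelial markers lay at 201 to 234 against 33.4 to 35.9 (2 of 5 higher, *Cdh5* and *Pecam1*, with *Kdr*, *Tek* and *Tie1* at 0 to 2 reads), and muscle markers at 175 to 235 against 54.9 to 72.1 (1 of 2 higher, *Des*). Epithelial markers summed to 20.6 to 25.9 against 2.64 to 9.51 (1 of 6 higher, *Krt8*, with *Epcam* at 0 or 1 read), adipocyte markers to 23.4 to 32.7 against 11.4 to 13.7 (1 of 4 higher, *Fabp4*, with *Adipoq* at 0 or 1 read) and hepatocyte markers to 0.979 to 2.13 against 0 to 0.880 (*Alb* and *Apoa1*, each at 0 to 2 reads per library, with adjusted p-values of 0.886 and 0.685 in DESeq2's Wald test). Beside these counts of markers, 21.5% of all genes were called higher and 21.5% lower. The part of these markers in the differences between the groups was not tested. In bulk RNA, fewer cells of a type and less RNA per cell cannot be told apart.

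Of the 10 IGF genes, 5 passed DESeq2's Wald test at an adjusted p under 0.05, where 8187 of all 19078 genes, or 42.9%, did. In the upward direction 4 of 10 passed, against 21.5% of all genes, and in the downward direction 1 of 10, against 21.5%. With at least a doubling or halving asked for as well, 2 of 10 passed, *Igfbp4* and *Igfbp6*, against 10.2% of all genes. Among the 5 members above a mean of 10 normalized counts, the middle log2 fold change was 0.42, beside -0.01 for the 12914 genes above that mean. The plot of log2 fold changes sets the 10 members side by side.

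**Figure D1:**
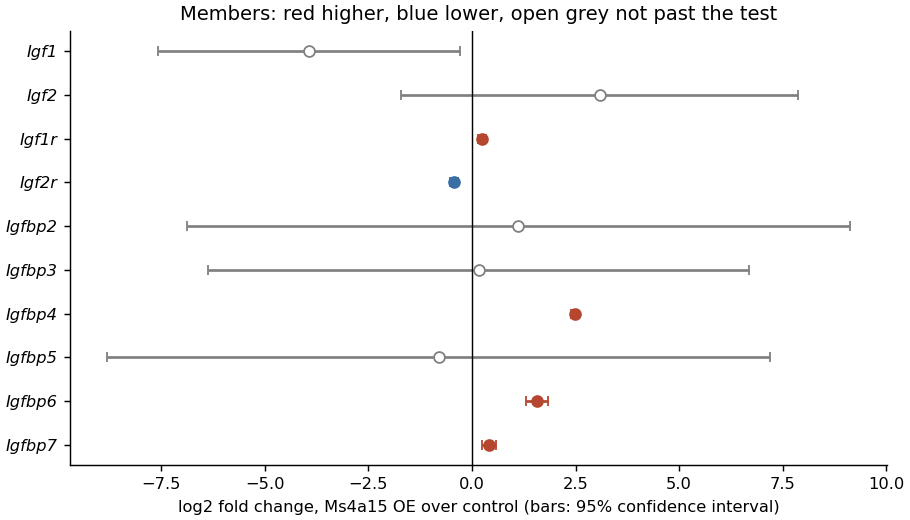
Log2 fold change (OE over control) of each of the 10 members on the x axis, with points for DESeq2's estimate and bars for its 95% confidence interval. *Igfbp4* (2.48), *Igfbp6* (1.57), *Igfbp7* (0.42) and *Igf1r* (0.24) are in red as higher, *Igf2r* (-0.44) in blue as lower, and the 5 members with few reads are open, as fitted values with intervals several units wide that are not read as sizes of a change.

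The ligand transcripts were at or near the limit of detection. *Igf1*, the main circulating ligand and a product of many mesenchymal cells (chr10:87858265-87937042, + strand, GRCm38), had 0 reads in each of the 3 OE libraries. In the control libraries it had 6, 2 and 1 reads, so the groups did not overlap, but 6 of the 9 reads came from control library a. The log2 fold change was -3.94 with an SE of 1.86, and the adjusted p of 0.0760 in DESeq2's Wald test missed the threshold (0.0342 before adjustment). *Igf2*, the imprinted ligand that is abundant in fetal tissues (chr7:142650766-142666816, - strand), had 3, 1 and 0 reads in OE cells and 0 reads in each control library. These groups overlapped, and the adjusted p of DESeq2's Wald test was 0.357. The fitted log2 fold changes of both ligands depend on how the fit treats a group at 0, which allows up to 3 reads per library, and are not read as sizes of a change. Transcripts of the ligands were thus barely detectable at this depth, and these counts say nothing of IGFs in the serum.

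Reads of 3 binding proteins were also too few to compare. *Igfbp2* (chr1:72824503-72852474, + strand) had 1 read, in OE library a, and *Igfbp5* (chr1:72857932-72874884, - strand), its neighbour on the chromosome, had 1 read, in control library c. *Igfbp3*, the main carrier of IGFs in serum (chr11:7206086-7213923, - strand), had 1 read in OE library b and 1 in control library b. Their adjusted p-values in DESeq2's Wald test lay between 0.886 and 0.973, and the 95% intervals of the log2 fold changes ran from at most -6.36 to at least 6.69. These data could not show a difference in either direction.

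**Figure D2:**
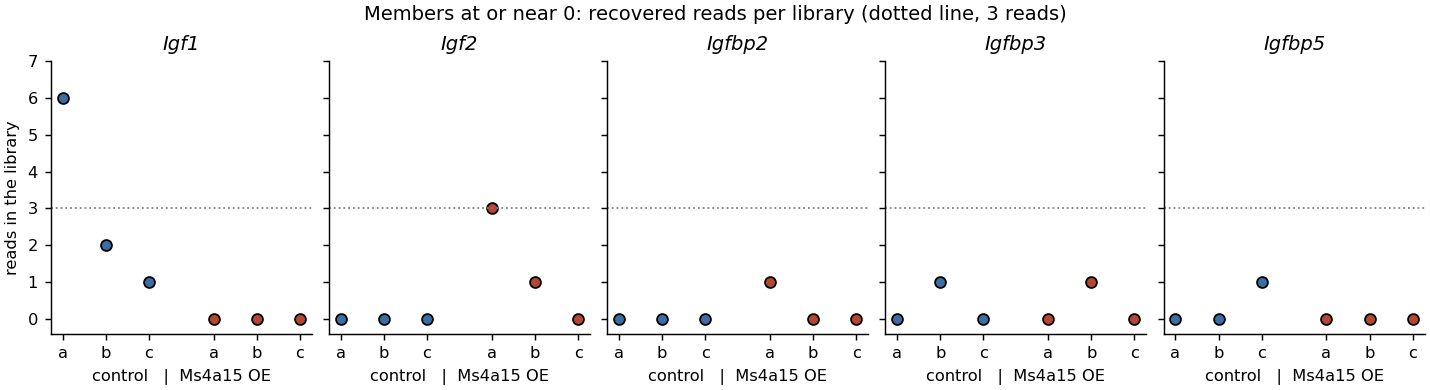
Reads per library (y axis) of the 5 members at or near 0, with control libraries a to c on the left of each panel and *Ms4a15* OE libraries a to c on the right. The dotted line at 3 reads is the number that a count of 0 allows, and *Igf1* in control library a, with 6 reads, is the one point above it.

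*Igfbp4* had the highest level per kb of exon of the 10 genes in each group and the largest change that passed the test. The protein binds IGF1 and IGF2 and is mostly known as an inhibitor of their action, until PAPP-A cuts it. The gene lies at chr11:99041244-99054392 (+ strand), and its mean rose from 2891 normalized counts in control cells to 16136 in OE cells. This was a log2 fold change of 2.48 (SE 0.044), with a 95% interval of 5.26- to 5.92-fold and an adjusted p listed as 0, as for 60 genes whose p was too small for the table. Of all genes, 94.5% had a lower log2 fold change. The recovery of its reads in single libraries was not tried at this level.

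*Igfbp6* rose as well, and its libraries separated fully. The protein differs from the other binding proteins in preferring IGF2 over IGF1. The gene lies at chr15:102144362-102149511 (+ strand). Its normalized counts were 599, 480 and 441 in OE libraries a, b and c (506 ± 82.5, SD, n = 3), from 531, 450 and 450 reads. In control libraries a, b and c they were 152, 155 and 201 (169 ± 27.8, SD, n = 3), from 144, 171 and 229 reads. The lowest OE library stood above the highest control library, although the OE libraries spread more widely than for *Igfbp7*. The log2 fold change was 1.57 (SE 0.14, 95% interval 1.30 to 1.84, adjusted p = 5.37e-29 in DESeq2's Wald test). An exact permutation test of 3 libraries against 3 (two-sided) gave 0.1, the smallest p it can give.

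*Igfbp7* rose by less. It is the most distant member of the family, binds IGFs weakly and also binds insulin, and is laid down in vessel walls and connective tissue. The gene lies at chr5:77349240-77408041 (- strand). OE libraries a, b and c had 749, 728 and 677 normalized counts (718 ± 37.2, SD, n = 3), and control libraries a, b and c had 548, 509 and 553 (537 ± 24.3, SD, n = 3). The groups did not overlap, and the gap between them was wider than the range within either group. The log2 fold change was 0.42 (SE 0.084, 95% interval 0.25 to 0.58, adjusted p = 2.99e-06 in DESeq2's Wald test). The recovery of its reads was the least certain of those printed, since a second set of whole reads missed the table's log2 fold change by only 1.04e-08. Against a 1.2-fold change, rather than no change, the adjusted p was 0.276.

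The receptors were both well expressed, and their changes were small against that of *Igfbp4*. *Igf1r*, the kinase that signals for both ligands (chr7:67952827-68233668, + strand), had means of 3106 normalized counts in OE and 2637 in control cells. The rise was 0.24 on the log2 scale (SE 0.050, 95% interval 0.14 to 0.33, adjusted p = 8.01e-06 in DESeq2's Wald test), and the call was lost against a 1.2-fold change, where the adjusted p was 1. *Igf2r* (chr17:12682406-12769664, - strand) had means of 2201 in OE and 2979 in control cells. The log2 fold change was -0.44 (SE 0.048, 95% interval -0.53 to -0.34, adjusted p = 1.01e-18), and *Igf2r* kept its call against a 1.2-fold change. As a ratio of levels per kb of exon, *Igf1r* to *Igf2r* was 0.491 in control cells and 0.783 in OE cells. The recovery of reads was not tried for either receptor.

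*Igf2r* is imprinted in the mouse, and the noncoding RNA *Airn*, transcribed from within it on the other strand, silences the paternal copy. *Airn* had 34, 41 and 56 reads in OE libraries a, b and c and 34, 31 and 53 in control libraries a, b and c, so the groups overlapped. Its log2 fold change was 0.31 (SE 0.31), and it did not pass the test (adjusted p = 0.502, DESeq2). How the counting treated strand is not given in the sources used here, and reads from the overlapping part of *Airn* and *Igf2r* cannot be told apart without it. *Mas1* and *Slc22a3*, which lie near *Igf2r*, had 1 read each over all libraries.

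**Figure D3:**
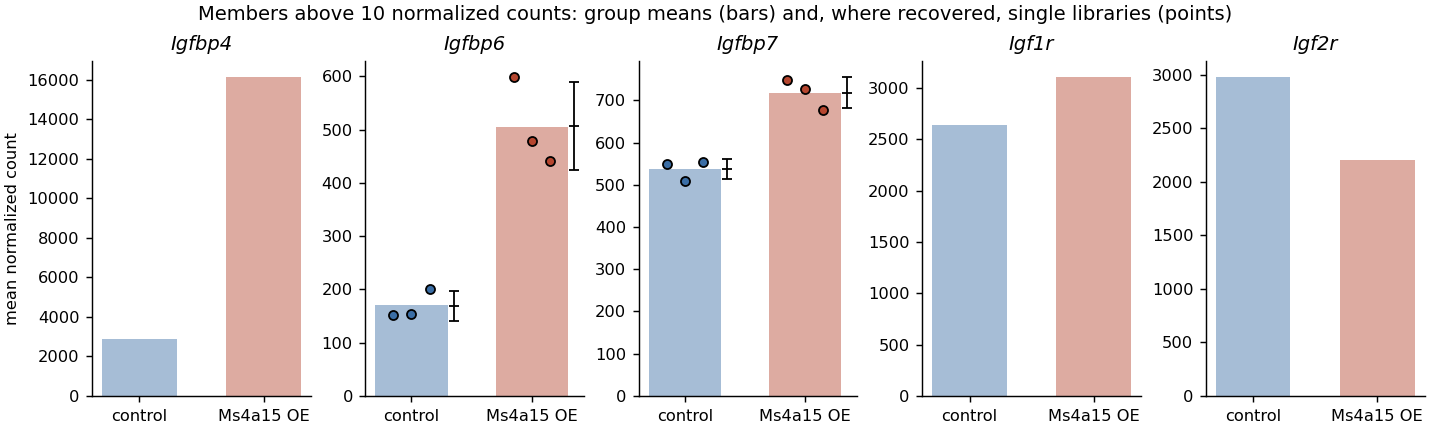
Mean normalized count (y axes from 0, a scale of its own in each panel) of the 5 members that passed the test, in control (blue bars) and *Ms4a15* OE cells (red bars). Points are single libraries a, b and c and the error bars beside them the SD of 3 libraries, for *Igfbp6* and *Igfbp7* alone. For these 2 genes all points of 1 group lie above all points of the other.

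Levels of different genes were compared only per kb of exon. In control cells the order was *Igfbp4* at 655 normalized counts per kb, *Igfbp7* at 444, *Igf2r* at 320, *Igf1r* at 157 and *Igfbp6* at 153. The control libraries of *Igfbp6* ran from 137 to 181 per kb and took in the mean of *Igf1r*, so these neighbours were not separated. In OE cells the order was *Igfbp4* at 3654, *Igfbp7* at 594, *Igfbp6* at 455, *Igf2r* at 236 and *Igf1r* at 185. In OE cells *Igfbp6* thus stood above the means of both receptors, with its libraries at 396 to 539 per kb against 560 to 620 for *Igfbp7*. With the longest transcript as the length in place of all exonic bases, *Igf1r* (272) stood above *Igf2r* (248) in OE cells, and the rest of the order was as given. Summed per kb, the 3 detected binding proteins came to 1252 in control and 4703 in OE cells, a ratio of 3.76. *Igfbp4* made up 52.3% of that sum in control and 77.7% in OE cells. The 2 receptors summed to 477 and 421 per kb, a ratio of 0.883.

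Genes that act on the binding proteins and on the ligands' precursors were taken from a list of 10, all in the table. Beside 21.5% of all genes in each direction, 4 of the list were higher, 3 lower and 3 not called. *Pappa*, which encodes the protease that cuts IGFBP4 and IGFBP5, was among those that rose. It had 276, 269 and 302 normalized counts in OE libraries a, b and c (282 ± 17.3, SD, n = 3), and 9.51, 9.04 and 6.16 in control libraries a, b and c (8.24 ± 1.81, SD, n = 3). Every OE library stood far above every control library. On the log2 scale the change was 5.11 (SE 0.32, adjusted p = 3.67e-57 in DESeq2's Wald test), a ratio of library means of 34.3. *Pappa2*, a related protease that cuts IGFBP3 and IGFBP5 and was singled out after its values were seen, had 79, 76 and 86 reads in OE and 13, 14 and 9 in control libraries. Its log2 fold change was 2.90 (SE 0.34, adjusted p = 1.10e-16).

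*Stc1*, whose product stanniocalcin inhibits PAPP-A, went the other way. It had 0 reads in each OE library and 9, 8 and 13 reads in control libraries a, b and c, which is at least 2.96-fold lower in OE cells at a floor of 3 reads per library (adjusted p = 2.39e-04, DESeq2). *Stc2*, the other stanniocalcin, had means of 421 in OE and 375 in control cells and did not pass the test (adjusted p = 0.217, DESeq2). *Igfals* encodes the acid-labile subunit, which joins IGF and IGFBP3 or IGFBP5 into a larger complex in serum. It had 18, 23 and 22 reads in OE and 0, 0 and 2 in control libraries, at least 7.79-fold higher in OE cells (adjusted p = 2.30e-05, DESeq2). *Adam12*, a membrane metalloprotease that can cut IGFBP3 and IGFBP5, fell from a mean of 7932 normalized counts to 450, a log2 fold change of -4.14 (SE 0.057, adjusted p listed as 0). To complete the list, *Htra1*, a serine protease, rose by 0.37 and *Furin*, a convertase that matures IGF precursors and IGF1R, fell by 0.37 on the log2 scale, while *Adam28* and *Pcsk6* had at most 2 reads in any library. Over its 7 genes above a mean of 10, the list had a median of 0.37 on the log2 scale, which is the value of *Htra1* and stays so with *Igfals* at its bound.

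**Figure D4:**
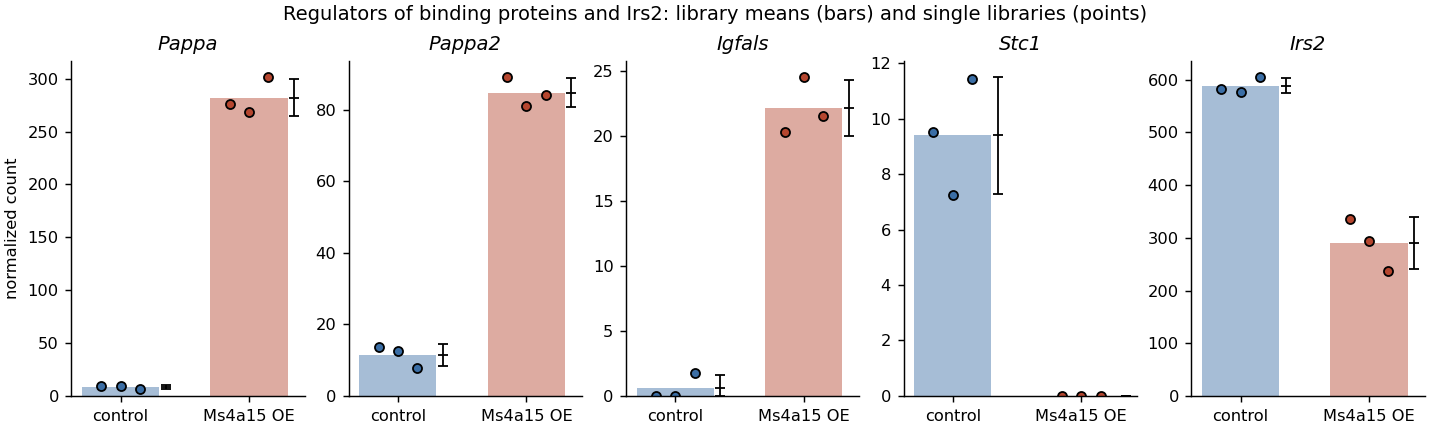
Normalized counts (y axes from 0, a scale of its own in each panel) of *Pappa*, *Pappa2*, *Igfals*, *Stc1* and *Irs2* in control (blue) and *Ms4a15* OE libraries (red). Bars are means of 3 libraries, points single libraries a, b and c, and error bars the SD, cut off at 0. *Pappa* (282 against 8.24), *Pappa2* and *Igfals* are high in OE cells, and *Stc1* and *Irs2* (289 against 589) in control cells, with no overlap in any panel. All genes drawn had passed the test, and *Itgb3*, whose groups overlapped, is not drawn.

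The list of other receptors and ligands of the family held 10 genes, 6 of them in the table. *M6pr*, the cation-dependent mannose-6-phosphate receptor, rose by 0.46 (SE 0.035) on the log2 scale, from a mean of 13376 normalized counts to 18355 (adjusted p = 1.08e-36, DESeq2). *Insr*, the insulin receptor, which can pair with IGF1R into hybrid receptors, had a log2 fold change of -0.31 (SE 0.055, adjusted p = 4.96e-08). *Itgav*, an integrin subunit of receptors that bind IGF1, had one of -0.28 (SE 0.042, adjusted p = 1.75e-10). Regions were described by the median log2 fold change of 20 genes on each side, each with a mean of at least 100. This median was -0.40 around *Insr*, 0.35 around *M6pr* and 0.15 around *Itgav*. *Insr* thus fell no further than its neighbours, and the cause of such regional shifts was not tested. *Itgb3*, *Lrp1* and the insulin receptor-related *Insrr* did not pass the test. *Itgb3* had 470, 471 and 492 normalized counts in OE libraries and 538, 523 and 472 in control libraries, and the groups overlapped.

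Downstream of the receptors, 30 of 32 listed genes were in the table, and 5 were higher, 12 lower and 13 not called. Of all genes, 21.5% passed in each direction. The docking proteins that the receptor kinase phosphorylates first moved apart. *Irs1* rose from a mean of 962 to 3301 normalized counts, a log2 fold change of 1.78 (SE 0.056, adjusted p = 1.03e-222 in DESeq2's Wald test). *Irs2* had 336, 294 and 238 normalized counts in OE libraries a, b and c (289 ± 49.3, SD, n = 3) and 583, 578 and 605 in control libraries (589 ± 14.6, SD, n = 3). Every OE library of *Irs2* was below every control library, with a log2 fold change of -1.03 (SE 0.11, adjusted p = 3.34e-19). Of the 4 listed subunits of the lipid kinase PI3K, 3 were lower, with log2 fold changes of -0.85 (SE 0.13) for *Pik3r2*, -0.77 (SE 0.045) for *Pik3cb* and -0.38 (SE 0.047) for *Pik3ca*. The fourth, *Pik3r1*, had a log2 fold change of -0.03 (SE 0.066) and did not pass the test (adjusted p = 0.863, DESeq2). Over its 28 genes above a mean of 10, the list had a median of -0.05. The 13 calls beside those of *Irs1*, *Irs2*, *Pik3r2* and *Pik3cb* ran from -0.55 for *Foxo1*, a transcription factor that AKT restrains, to 0.41 on the log2 scale. They included the kinase *Akt1* (-0.23) and the phosphatase *Inppl1* (-0.50), which opposes PI3K. These 3, *Pik3ca* and *Pik3r1* were named after their values were seen. *Rictor*, a subunit of the mTOR complex that phosphorylates AKT, and the exchange factor *Sos2*, named likewise, were each higher by 0.41. The median of the neighbouring genes, as above, was -0.42 around *Irs2*, -0.41 around *Pik3r2*, -0.37 around *Pik3ca* and -0.38 around *Foxo1*. *Pik3ca* thus fell about as far as its neighbours. This median was -0.04 around *Pik3cb*, -0.15 around *Irs1* and -0.07 around *Inppl1*. It was 0.15 around *Akt1* and *Sos2* and 0.21 around *Rictor*. The cause of these regional shifts was not tested.

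The last list held genes tied to *Igf2* by its mRNA or its imprinted locus. The IGF2 mRNA-binding proteins bind and stabilise many transcripts. All 3 rose, *Igf2bp2* the most, from a mean of 1686 to 6345 normalized counts (log2 fold change 1.91, SE 0.045, adjusted p listed as 0). *Igf2bp1* and *Igf2bp3* each had a log2 fold change of 0.35 (SE 0.041 and 0.045). The median of the neighbouring genes was 0.41 around *Igf2bp3*, so *Igf2bp3* rose no further than its neighbours. This median was 0.03 around *Igf2bp1* and 0.14 around *Igf2bp2*. Over the list, 3 of the 5 genes in the table were higher and 0 lower, beside 21.5% of all genes in each direction. *Igf2* itself had 4 reads in all, as given above, and *Plagl1*, an imprinted transcription factor, had 2 reads, so neither could be compared. *H19* and *Ins2* were not analysed here.

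**Figure D5:**
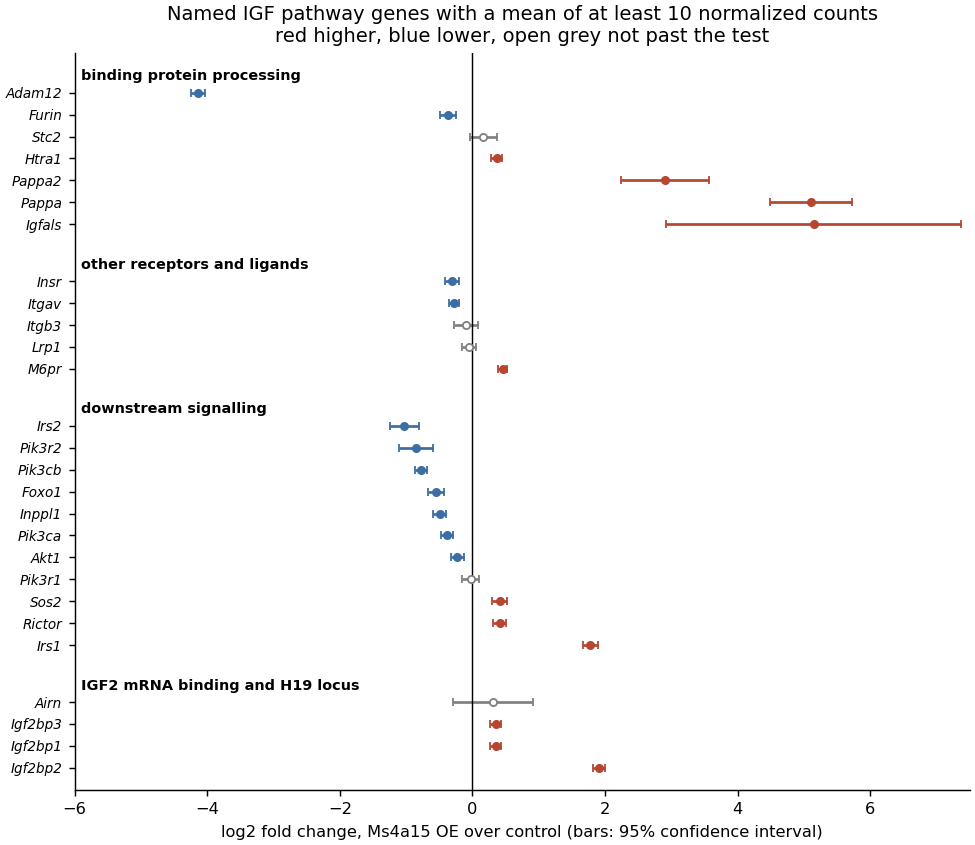
Log2 fold change (OE over control, x axis) of the IGF pathway genes named in the text whose mean reached 10 normalized counts, by list, with bars for the 95% confidence interval. Red points are higher, blue lower and open grey ones did not pass the test. In the first list *Pappa* stands at 5.11 and *Adam12* at -4.14, while the point of *Igfals*, which had 2 control reads in all, is a fitted value and not the size of its change. In the downstream list *Irs1* (1.78) and *Irs2* (-1.03) lie at the ends.

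Over the 4 lists, 30 of the 51 genes in the table passed the test, 13 of them higher and 17 lower, beside 42.9% of all genes. These shares are not of genes at like levels, since 44 of the 51 had a mean of at least 10, against 12914 of all 19078 genes. The lists thus gave no common direction. At least a doubling or halving was fitted for 2 called members, *Igfbp4* and *Igfbp6*. It was also fitted for 8 called pathway genes: *Pappa*, *Pappa2*, *Adam12*, *Irs1*, *Irs2*, *Igf2bp2* and, at few reads, *Igfals* and *Stc1*.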

How the data were processed

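RNA from 3 *Ms4a15* OE and 3 control libraries was analysed by the authors, who deposited 1 table with a signal column (the mean normalized count over all libraries), a log2 fold change with its standard error, and p-values raw and adjusted. No column holds a single sample. The sources disagree on how it was made: the methods name STAR, HTSeq-count and DESeq2 on mm10, and the submitters' processing notes name TopHat, Cufflinks, Cuffdiff, HTSeq and DESeq2. The strand setting of HTSeq is not given in the sources used here. The kits and read lengths differ between the sources as well. The table lists 25 symbols as dates, which are no members.

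The main test was the authors' DESeq2 Wald test, since no counts were at hand, with the Benjamini-Hochberg adjustment recomputed over all 19078 genes (8187 called, as in the deposited adjustment). Group means were computed from the mean and log2 fold change for equal groups. Positions and exon lengths come from GENCODE (GRCm38), promoters from RefSeq. On log2 fold changes simulated for the comparison of OE with control, the Wald step over 19078 genes called 199 of 200 changed genes and 14 unchanged ones. The changes were of at least 1 on the log2 scale in well-expressed genes, and the noise was drawn from the table's own SE. This checks the calculation only, not smaller changes or the authors' estimates of the SE. Members and lists were chosen with earlier results of these data known. Named were all members, at most 4 called genes per list by size of change, the locus neighbours, and others where said, and a few listed genes are counted but not reported by name here.

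Reads of single libraries were recovered after the data had been seen. Size factors were read from genes with 1 read in 1 library (697 in OE, 570 in control), and all 3281 low genes had exactly 1 whole-read solution (tolerance 7e-09 in summed normalized counts). For higher genes, all sets of reads that give the printed mean were listed. The authors' DESeq2 fit was repeated on each, and its log2 fold change was compared with the table's. Where only 1 set gave the mean, it was accepted without a limit on this error. The error was 0.0645 for *Igf1*, 0.0586 for *Igf2*, 0.0056 for *Igfals* and 0.0010 for *Stc1*. Where several sets gave the mean, the best was accepted at an error of at most 1e-09 with the next at 1e-08 or more. Where a group mean was under 10, it was also accepted at an error of at most 5e-06 with the next 100 times farther. These limits were set after values of *Igfbp6*, *Igfbp7* and *Ms4a15* had been seen, and genes with a mean of 700 or more were not tried. Reads within 5 SD of the group mean were searched (for *Ms4a15* within 4 SD, at a coefficient of variation of at most 0.15). Of 200 other genes with means of 20 to 100, 200 had a single accepted set, but their true reads are not known. In a self-test with known reads, 40 of 40 at the level of *Airn*, 12 of 12 at that of *Igfbp6* and 3 of 6 at that of *Igfbp7* came back right, with 0 wrong. Python 3.11.15, numpy 2.4.6, pandas 2.3.3, scipy 1.17.1 and matplotlib 3.10.9 were used.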

Additional observations from a re-analysis of the deposited data

How the results depend on the processing

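Of the 5 members called, 3 were called in a test against a 1.2-fold change (*Igfbp4*, *Igfbp6* and *Igf2r*) and 2 where a change of at least 1 on the log2 scale was asked for. Against a 1.2-fold change, *Igf1r* (log2 fold change 0.24) had an adjusted p of 1 and *Igfbp7* (0.42) one of 0.276. Of the 30 pathway genes called, 16 were called against a 1.2-fold change and 8 where that size was asked for. The adjustment over genes with a mean of at least 10, the centring on the median and the subtraction of the median of 20 genes on each side gave 5 members each, and for pathway genes 30, 30 and 29, the last chosen after seeing the data. A like count does not mean the same genes. With the neighbours' median subtracted, the log2 fold change of *Irs2* went from -1.03 to -0.61. Those of *Pik3ca* (-0.38), *Insr* (-0.31) and *Igf2bp3* (0.35) lay close to the medians of their neighbours (-0.37, -0.40 and 0.41). Of 35 results for single members under alternatives, 33 kept their direction and their side of the threshold, 2 lost the call and 0 reversed. Those kept include results of the 5 members with few reads, which only stayed uncalled. The 35 leave out the setting that asked for a change of at least 1 on the log2 scale, where only *Igfbp4* and *Igfbp6* stayed called. Leaving out each library in turn moved the log2 ratio of library means between 1.44 and 1.72 for *Igfbp6*, 0.38 and 0.46 for *Igfbp7*, 4.93 and 5.21 for *Pappa*, 2.68 and 3.04 for *Pappa2*, and -1.15 and -0.90 for *Irs2*. For *Igfbp4*, *Igf1r* and *Igf2r* no library could be left out, as the recovery of their reads was not tried. No paired analysis was possible because the table gives no values of numbered libraries. Depth limits *Igf1*, *Igf2*, *Igfbp2*, *Igfbp3* and *Igfbp5*, for which differences were not detectable.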
